A study of Mus musculus with 4 samples.

Results

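The genes described here are 8 regulators of coagulation and fibrinolysis in endothelial cells, Procr, F2r, Anxa2, Gas6, F3, Thbd, Plat and Tfpi. They were chosen by name, from a list of 8 symbols drawn up with earlier results of these data known. All 8 were on the array, among 11138 genes with a single symbol, and were read from 18 of its 32448 spots. SVEC cells, an established mouse endothelial line, were grown with LPS (lipopolysaccharide, the outer membrane component of Gram-negative bacteria) for 4 h or 24 h. The amplified RNA of treated and control cells was compared on the same array with 2 dyes. The LPS group at each time was set against the control RNA on its own arrays. Whether that control was matched in time or shared between the times is not given. The labels give 50 ng/ml LPS for 3 of the 4 arrays, no other agent or genotype, and no count of cultures. Each time has 2 arrays with exchanged dyes, named here by the dye of the LPS sample, Cy5 or Cy3. They are taken as 2 readings of 1 RNA pair, so the SD given below is the spread between readings and may be technical. All values are log2 ratios of LPS over control relative to the median spot of the array, with the reversed array turned in sign. The direction is likely and not certain, because the labels name the dyes and channels but not which is divided by which, and if it were the other way round all signs below would change. A ratio says nothing about how strongly a gene is expressed, so genes are not ranked by level.

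Resting endothelium keeps blood fluid by holding thrombin in check at its surface. Thrombomodulin (Thbd) and the endothelial protein C receptor (Procr) turn thrombin from a clotting enzyme into the activator of protein C, an anticoagulant, while tissue factor (F3) starts clotting and Tfpi blocks that step. Tissue plasminogen activator (Plat) makes plasmin, which dissolves fibrin, annexin A2 (Anxa2) holds plasminogen and its activator on the cell surface, and LPS is a classical stimulus that shifts this balance toward clotting in endothelium.

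The sequences below show the 250 bases before the RefSeq start site of the 4 genes past the 2-fold rule at 4 h and of F3, the tissue factor gene, for contrast. They come from RefSeq with build GRCm38.p6 and are written 5′ to 3′ on the strand of the gene. The window of Procr is chr2:155750967-155751216, plus strand, that of Anxa2 chr9:69453433-69453682, plus strand, that of Gas6 chr8:13494536-13494785, minus strand, that of F2r chr13:95618467-95618716, minus strand and that of F3 chr3:121723287-121723536, plus strand. Capitals mark matches to the AP-1 motif TGANTCA on either strand.
Procr: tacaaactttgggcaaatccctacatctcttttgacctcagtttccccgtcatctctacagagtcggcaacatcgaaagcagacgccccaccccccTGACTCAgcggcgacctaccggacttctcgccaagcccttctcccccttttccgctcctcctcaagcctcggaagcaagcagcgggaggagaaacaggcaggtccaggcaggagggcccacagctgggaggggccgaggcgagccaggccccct
Anxa2: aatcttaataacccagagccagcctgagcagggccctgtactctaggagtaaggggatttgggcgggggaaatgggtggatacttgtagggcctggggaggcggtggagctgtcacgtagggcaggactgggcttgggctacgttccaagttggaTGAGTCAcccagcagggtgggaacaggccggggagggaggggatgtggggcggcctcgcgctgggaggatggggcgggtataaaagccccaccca
Gas6: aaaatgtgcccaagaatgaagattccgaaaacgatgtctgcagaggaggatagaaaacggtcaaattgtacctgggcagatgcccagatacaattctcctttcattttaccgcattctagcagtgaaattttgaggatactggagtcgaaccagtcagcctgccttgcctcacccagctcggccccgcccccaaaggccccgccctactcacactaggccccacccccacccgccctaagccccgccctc
F2r: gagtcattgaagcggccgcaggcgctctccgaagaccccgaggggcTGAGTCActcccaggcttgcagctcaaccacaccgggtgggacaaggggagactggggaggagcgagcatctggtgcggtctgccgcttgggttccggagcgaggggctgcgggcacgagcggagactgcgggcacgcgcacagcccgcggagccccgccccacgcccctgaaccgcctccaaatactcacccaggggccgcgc
F3: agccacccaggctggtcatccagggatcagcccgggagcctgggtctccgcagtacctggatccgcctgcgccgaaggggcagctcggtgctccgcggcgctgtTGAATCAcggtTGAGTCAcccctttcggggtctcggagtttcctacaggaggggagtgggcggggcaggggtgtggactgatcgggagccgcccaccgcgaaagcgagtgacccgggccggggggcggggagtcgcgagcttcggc

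Of the 8 genes, 6 had a window in the RefSeq table, and 4 of these 6, Procr, F2r, Anxa2 and F3, held the AP-1 letters, which occur in 6.75% of 32851 windows of the same length. The match began 154 bases before the start site in Procr, 204 in F2r and 95 in Anxa2, and F3 held 2 matches, at 146 and 135 bases. The genes with a match therefore include 2 that were higher at 4 h, the 1 that was lower and 1 with a mean near 0. The NF-kB consensus was in none of the 6 (7.25% of all windows), and NF-kB sequences that depart from that consensus were not searched for. The TATA box TATAAA was in Anxa2 and Tfpi (12.4%), and the GC box GGGCGG was in 5 of the 6, all but Procr (32.7%). The STAT motif TTCNNNGAA (7.02%) and the core of the interferon-stimulated response element (2.98%) were in none. All motifs were searched on both strands, and a match is a run of letters and not a site shown to be used. Thbd and Plat are named only.

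The arrays differed in quality. Across genes, the arrays of a pair correlated at r = 0.478 for 4 h and 0.101 for 24 h after turning, and genes are not independent replicates. The r between duplicate spots was 0.618 and 0.499 at 4 h, and 0.41 and 0.258 at 24 h. At 4 h, a list of 30 abundant transcripts outside translation lay high, with array medians of 2.33 (Cy5) and 1.31 (Cy3), while at 24 h the medians were 0.152 and 0.0864. Centring on these transcripts in place of the median spot lowers every gene by 1.82 at 4 h and 0.119 at 24 h. The part of this shift in the 4 h values below was not tested.

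After 4 h with LPS, 3 of the 8 regulators had higher ratios past a 2-fold rule and 1 had a lower one. A gene counts as higher or lower when its mean is at least 2-fold and each array at least 1.5-fold the same way. The higher ones were Procr, Anxa2 and Gas6, and the lower one was F2r, the thrombin receptor. By the same rule 8.74% of all genes were higher and 5.77% were lower. The 8 genes were chosen with earlier results of these data known, so these shares do not test for enrichment. The median of the 8 genes was 0.35 at 4 h, against 0.00 for all genes. With centring on the abundant transcripts 0 of the 8 were higher and 5 were lower, beside 1.09% of all genes higher and 79.6% lower. A single time is taken as 1 RNA pair and so has no test. Fewer cells with a transcript cannot be told apart from less of it per cell.

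**Figure D1:**
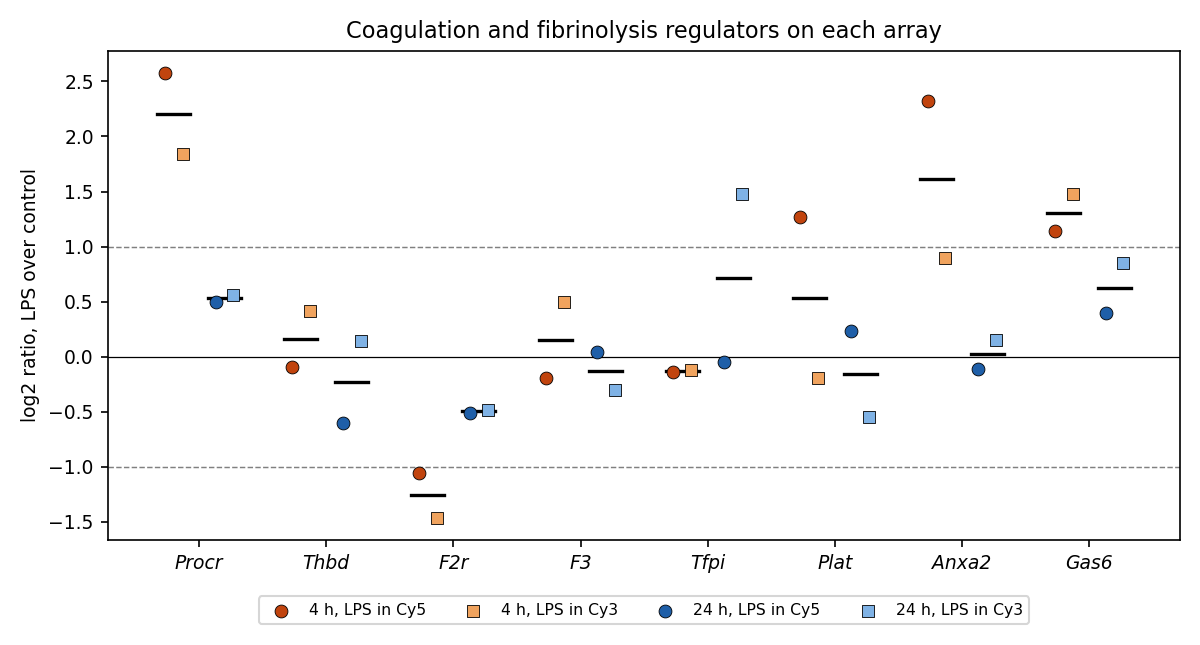
Log2 ratio of LPS over control (vertical axis) of the 8 regulators on each of the 4 arrays; points are arrays, short black bars the mean of the 2 arrays of a time, and dashed lines 2-fold. Procr, Anxa2 and Gas6 lie above 0 and F2r below 0 on both 4 h arrays, and no mean at 24 h reaches 2-fold.

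Among genes of the protein C pathway, Procr, the receptor that presents protein C to thrombomodulin, had the highest ratio of the 8 genes at 4 h. It lay at 2.58 (Cy5) and 1.84 (Cy3) on the 4 h arrays, a mean of 2.21 ± 0.52 (SD, 2 arrays), or 4.62-fold, which is rank 319 from the top of 11138 genes. At 24 h the arrays gave 0.50 and 0.56, a mean of 0.53 ± 0.05, or 1.44-fold. Procr was thus above 0 on all 4 arrays, with both 24 h arrays under both 4 h arrays. Its duplicate spots differed by at most 0.097 on any array. With the abundant transcripts as the zero point Procr lay at 0.39 at 4 h and 0.41 at 24 h.

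Thbd, thrombomodulin, which binds thrombin beside Procr, did not share this. It lay at -0.10 and 0.42 on the 4 h arrays and at -0.60 and 0.14 on the 24 h arrays, with means of 0.16 ± 0.36 and -0.23 ± 0.52. At each time its arrays fell on opposite sides of 0. Of the 5 genes of this pathway, 1, Procr, was past the rule at 4 h and 0 at 24 h, beside 8.74% of all genes higher at 4 h. Proc, protein C itself, had a mean of -0.25 at 4 h and 0.08 at 24 h, Pros1, its cofactor protein S, 0.31 and -0.19, and Serpina5, the protein C inhibitor, -0.43 and 0.25. The list medians were 0.16 and 0.08, against 0.00 and 0.02 over all genes.

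F2r, the protease-activated receptor through which thrombin signals to endothelial cells, was the 1 regulator past the rule in the lower direction. It lay at -1.06 and -1.46 on the 4 h arrays, a mean of -1.26 ± 0.28, or 2.40-fold lower in LPS-treated cells, which is rank 601 from the bottom of 11138 genes. At 24 h it lay at -0.51 and -0.49, a mean of -0.50 ± 0.02. All 4 arrays and all 8 spot values were below 0, and 10.1% of all genes were likewise below 0 on every array. At gene level the 24 h arrays lay closer to 0 than the 4 h arrays, and the means differed by 0.76, short of the 1 that the rule for a difference demands. With the abundant transcripts as the zero point F2r lay at -3.08 at 4 h.

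The related thrombin receptors F2rl3, at -0.63 ± 0.37, and F2rl2, at -0.28 ± 0.03, were below 0 on both 4 h arrays without reaching the rule. Both 4 h arrays were below 0 in 31.6% of all genes. At 24 h F2rl3 lay at 0.15 and F2rl2 at 0.02, and F2rl1 was not analysed here. Of 9 measured signal proteins beneath these receptors, 2 were higher and 2 lower at 4 h, and 0 were past the rule at 24 h. Over all genes 8.74% were higher and 5.77% lower at 4 h. Gnai3 lay at 3.05 and 3.03 on the 4 h arrays, a mean of 3.04 ± 0.01, and Gnai2 at 1.92 and 1.83, a mean of 1.87 ± 0.07. Both are inhibitory G protein alpha subunits. The duplicate spots of Gnai3 were 2.39 apart on the 4 h array with LPS in Cy5. Without that pair Gnai3 was left with 1 array at 4 h, at 3.03. It no longer counted only because the rule asks for both arrays. Gna13, another alpha subunit that thrombin receptors use, lay at -2.46 and -1.41, a mean of -1.94 ± 0.74, and Gnai1, a further inhibitory subunit, at -2.12 and -1.25, a mean of -1.69 ± 0.61. The inhibitory alpha subunits thus stood on opposite sides of 0, and with the abundant transcripts as the zero point Gnai3 lay at 1.22 and Gnai2 at 0.06 at 4 h. Of the remaining alpha subunit genes, Gnaq had means of 0.50 at 4 h and 0.11 at 24 h, and Gna12 had means of -0.22 and 0.46.

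Tissue factor, encoded by F3, was close to 0 at both times, but its 2 oligonucleotides did not agree. The gene mean was 0.15 ± 0.48 at 4 h, from arrays at -0.19 and 0.49, and -0.13 ± 0.24 at 24 h, from arrays at 0.04 and -0.30. The first oligonucleotide gave -0.38 and -0.32 at 4 h and 0.29 and 0.53 at 24 h, so that it was below 0 and then above 0 on every array. The second held 4 spot values at a ratio of exactly 1, and a single spot at 2.60 on the 4 h array with LPS in Cy3 made its 4 h mean 0.65, while its 24 h mean was -0.67. Without spot pairs over 2-fold apart, a setting chosen after seeing the data, the 4 h mean of F3 was -0.25.

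Tfpi, the inhibitor of tissue factor, lay at -0.14 and -0.12 on the 4 h arrays, a mean of -0.13 ± 0.02. At 24 h it lay at -0.05 (Cy5) and 1.48 (Cy3), a mean of 0.72 ± 1.08, so the arrays did not give the same reading. The high array rests on 1 of its 2 spots, at 2.61 beside 0.36. Without the 24 h array with LPS in Cy5 Tfpi would be past 2-fold, and without the pair of unlike spots it lay at -0.05. None of the 5 genes of the tissue factor pathway met the rule at either time. By the same rule 8.74% of all genes were higher and 5.77% lower at 4 h, and 1.68% and 0.799% at 24 h. F7, the partner of tissue factor, had means of -0.71 ± 0.05 at 4 h and 0.71 ± 1.30 at 24 h, F10, the factor they activate, -0.67 ± 0.14 and -0.39 ± 0.20, and the related inhibitor gene Tfpi2 -0.30 and -0.36.

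Plat, tissue plasminogen activator, lay at 1.27 (Cy5) and -0.20 (Cy3) on the 4 h arrays, a mean of 0.54 ± 1.03. At 24 h it lay at 0.23 and -0.55, a mean of -0.16 ± 0.55. At both times the reading was above 0 with LPS in Cy5 and below 0 with LPS in Cy3. The duplicate spots of Plat differed by at most 0.12 on the 4 h arrays, so this gap lies between the arrays and not between spots. Without the 4 h array with LPS in Cy3 Plat would count as higher at 4 h.

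Anxa2, the surface receptor for plasminogen and its activator, lay at 2.32 and 0.90 on the 4 h arrays, a mean of 1.61 ± 1.01, or 3.05-fold. At 24 h it lay at -0.11 and 0.16, a mean of 0.02 ± 0.19, or 1.02-fold. The groups of readings did not overlap between the times. Its size at 4 h rests on 1 spot at 3.44, beside a duplicate at 1.21, on the array with LPS in Cy5. The spots of the other 4 h array were at 1.35 and 0.44. Without the array with LPS in Cy5 the ratio was 0.90 and Anxa2 was not past the rule, and with the abundant transcripts as the zero point it was -0.21.

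**Figure D2:**
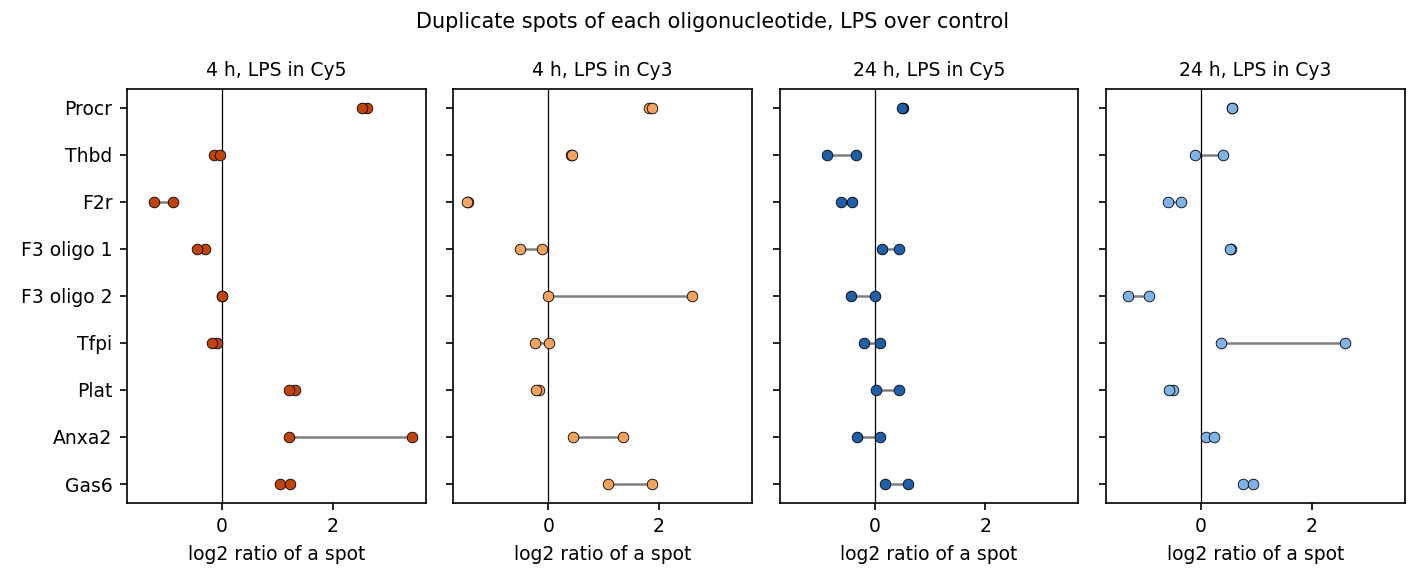
Log2 ratios of the single spots (horizontal axis) of each oligonucleotide on the 4 arrays, 1 panel an array, with duplicate spots joined by a line; F3 has 2 oligonucleotides. Spots of Procr and F2r lie close together, and the widest pairs are those of Anxa2 and F3 at 4 h and of Tfpi at 24 h.

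S100a10, which forms a complex with annexin A2, lay at 0.58 and 0.03 on the 4 h arrays and at a ratio of exactly 1 on both 24 h arrays. At 24 h, 3501 spots of the array with LPS in Cy5 and 3267 of that with LPS in Cy3 held exactly 1. Whether such a value is a measurement is not given. With exact zeros as not measured, S100a10 has no 24 h value. Plgrkt, another plasminogen receptor gene, was past the rule at 4 h, at 3.03 and 0.80, a mean of 1.92 ± 1.58, and lay at 0.18 at 24 h. Its 4 h mean was 0.099 with the abundant transcripts as the zero point. Of 10 measured genes of plasminogen activation, Anxa2 and Plgrkt were the 2 past the rule at 4 h, and 0 were at 24 h. Over all genes 8.74% were higher at 4 h. Serpinf2, the inhibitor of plasmin, lay at -0.73 ± 0.21 at 4 h and -0.25 at 24 h, and Plau, urokinase, at 0.10 and -0.39 with oligonucleotides that differed in sign. Serpine2, Cpb2 and A2m were not analysed here. The list medians were 0.15 at 4 h and -0.14 at 24 h.

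Other annexins, a family of proteins that bind phospholipid with calcium, stood beside Anxa2 at 4 h. Of 12 measured, 3 were higher and 0 lower, and 4 were lower at 24 h than at 4 h. Over all genes 9.99% were lower at 24 h than at 4 h, and 8.74% were higher and 5.77% lower at 4 h. Anxa3 lay at 2.35 and 2.16, a mean of 2.26 ± 0.14, and Anxa5, whose protein covers exposed phosphatidylserine and so slows clotting, at 2.04 and 1.62, a mean of 1.83 ± 0.30. Their 24 h means were 0.01 and 0.17. The arrays of Anxa3 and of Anxa5 lay closer together than those of Anxa2. The duplicate spots of Anxa3 were 1.10 apart on the 4 h array with LPS in Cy3. Without that pair Anxa3 was left with 1 array at 4 h, at 2.35. It no longer counted only because the rule asks for both arrays. With the abundant transcripts as the zero point Anxa3 lay at 0.44 and Anxa5 at 0.01 at 4 h. The largest of the rest were Anxa13 at -1.27 ± 1.19 at 24 h, Anxa9 at 0.75 ± 1.03 at 4 h, Anxa7 at 0.65 ± 0.78 at 24 h and Anxa6 at 0.61 ± 0.06 at 24 h. The median of the family was 0.33 at 4 h and 0.01 at 24 h.

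Gas6, a vitamin K-dependent relative of protein S that activates the receptors Axl, Tyro3 and Mertk, lay at 1.14 and 1.48 on the 4 h arrays, a mean of 1.31 ± 0.24, or 2.48-fold. At 24 h it lay at 0.39 and 0.85, a mean of 0.62 ± 0.32, or 1.54-fold. It was above 0 on all 4 arrays and in all 8 spot values, as Procr was, and 11.8% of all genes were above 0 on every array. Under a looser rule, a mean at least 1.5-fold and both arrays merely above 0, Gas6 was the 1 of the 8 genes counted as higher at 24 h, beside 8.98% of all genes. With the abundant transcripts as the zero point it lay at -0.51 at 4 h and at 0.50 at 24 h.

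None of the receptors of Gas6 met the rule. Axl lay at 0.80 and 0.10 at 4 h, a mean of 0.45 ± 0.49, and at 0.22 ± 0.05 at 24 h. Tyro3 lay at -0.89 and 0.93 at 4 h, with a mean of 0.02, and at 0.34 ± 0.68 at 24 h. Mertk had a 24 h mean of 1.21 ± 1.61, from arrays at 0.08 and 2.35, and 0.27 at 4 h. Of the 5 genes of this list, Gas6 was the 1 past the rule at 4 h, beside 8.74% of all genes higher.

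Genes of vitamin K-dependent carboxylation, the modification that Gas6 and several clotting factors need, had 3 of 12 members higher at 4 h and 0 lower, Gas6 among them. Over all genes 8.74% were higher and 5.77% lower at 4 h. Vkorc1, which recycles vitamin K and is the target of warfarin, lay at 3.06 and 2.53, a mean of 2.79 ± 0.38, or 6.93-fold. Ggcx, the carboxylase itself, lay at 1.42 and 0.76, a mean of 1.09 ± 0.47. Their 24 h means were -0.23 ± 0.79 and 0.01 ± 0.02, and with the abundant transcripts as the zero point Vkorc1 lay at 0.97 and Ggcx at -0.73 at 4 h. Vkorc1l1, a paralog of Vkorc1, lay at -0.36 ± 0.85 at 4 h, and Bglap, osteocalcin, at -0.79 ± 0.73 at 24 h. The median of this list was -0.08 at 4 h.

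Clotting factors that circulate in blood and their inhibitors, made mostly in the liver, had 2 of 14 members higher at 4 h and 0 lower. Over all genes 8.74% were higher and 5.77% lower at 4 h. F13a1, the subunit of factor XIII that crosslinks fibrin, lay at 1.87 and 1.80, a mean of 1.84 ± 0.05, and at 0.19 at 24 h. Its 4 h mean was 0.02 with the abundant transcripts as the zero point. Kng1, kininogen, lay at 0.63 and 2.82 at 4 h, a mean of 1.73 ± 1.55, and at -0.82 ± 0.89 at 24 h. The duplicate spots of Kng1 were 2.94 and 4.04 apart on the 4 h arrays, so no 4 h value is left without unlike spots. F11 had the highest 24 h mean of the list, 2.14 ± 2.56, but its arrays lay at 0.33 and 3.95, and the rule asks 1.5-fold of each. Klkb1, plasma prekallikrein, had a 24 h mean of 0.99 ± 1.33, and F8 and F13b had 4 h means of -0.85 ± 0.27 and -0.80 ± 0.23. Vwf was not analysed here.

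Of 11 measured genes for other antithrombotic functions of endothelium, none met the rule at either time. Among all genes 8.74% were higher and 5.77% lower at 4 h, and 1.68% and 0.799% at 24 h. Ptgis, which makes prostacyclin, lay at 0.70 and 1.21 at 4 h, a mean of 0.96 ± 0.35, and at -0.63 ± 1.03 at 24 h. Entpd1, which breaks down ATP and ADP, lay at -0.67 ± 1.07 at 4 h and 0.51 ± 0.77 at 24 h. The heparan sulfate carriers Sdc4 and Sdc1 lay at 0.79 ± 0.02 and -0.67 ± 0.72 at 24 h. Over all lists together, without the 8 regulators, 9 of 69 measured genes were higher at 4 h, 2 were lower and 0 were past the rule at 24 h, with medians of -0.05 and 0.01. That is 13% higher, beside 8.74% of all genes. The lists too were chosen with earlier results known, so this is no test of enrichment. Without duplicate spots over 2-fold apart, 4 of these 9, Gnai3, Kng1, Plgrkt and Anxa3, lacked a value on at least 1 of the 4 h arrays and no longer counted, and the other 5 did.

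**Figure D3:**
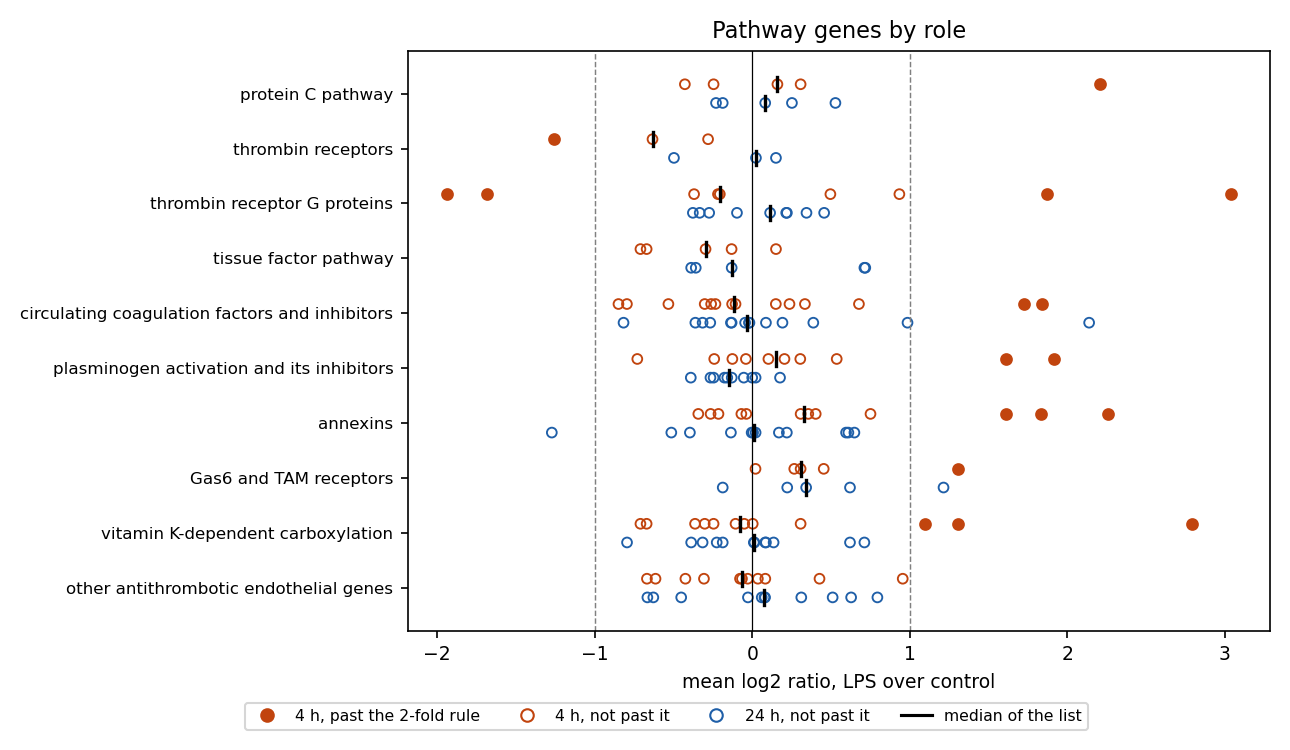
Mean log2 ratio of LPS over control (horizontal axis) of every measured gene in the pathway lists, by role, at 4 h (upper row, red) and 24 h (lower row, blue); filled points are past the 2-fold rule and black bars are list medians. Filled points occur at 4 h alone, and most lists have their median near 0.

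After 24 h with LPS, 0 of the 8 regulators were past the rule in either direction, beside 1.68% of all genes higher and 0.799% lower. The means ran between -0.50 for F2r and 0.72 for Tfpi, with a median of -0.05. Procr and Gas6 were above 0 on both arrays, F2r was below 0 on both, and the other 5 had arrays on opposite sides of 0. Across all genes 30.3% were above 0 on both 24 h arrays and 25.6% were below.

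Between the times, Procr and Anxa2 had lower ratios at 24 h than at 4 h by a rule that asks for means at least 1 apart and arrays that do not overlap between the times. By this rule 9.99% of all genes were lower at 24 h and 8.23% were higher. Procr averaged 0.53 at 24 h and 2.21 at 4 h, a 24 h minus 4 h difference of -1.68. Anxa2 averaged 0.02 at 24 h and 1.61 at 4 h, a difference of -1.59. It was -0.69 for Gas6, -0.69 for Plat, 0.76 for F2r and 0.85 for Tfpi, all short of the rule, and -0.39 for Thbd and -0.28 for F3. Without the 4 h array with LPS in Cy5 the call held for Procr and not for Anxa2. With centring on the abundant transcripts none of the 8 were lower at 24 h and 6, all but Procr and Anxa2, were higher, beside 1.08% of all genes lower and 76.4% higher. Whether the times share control RNA is not given in the sources used here.

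**Figure D4:**
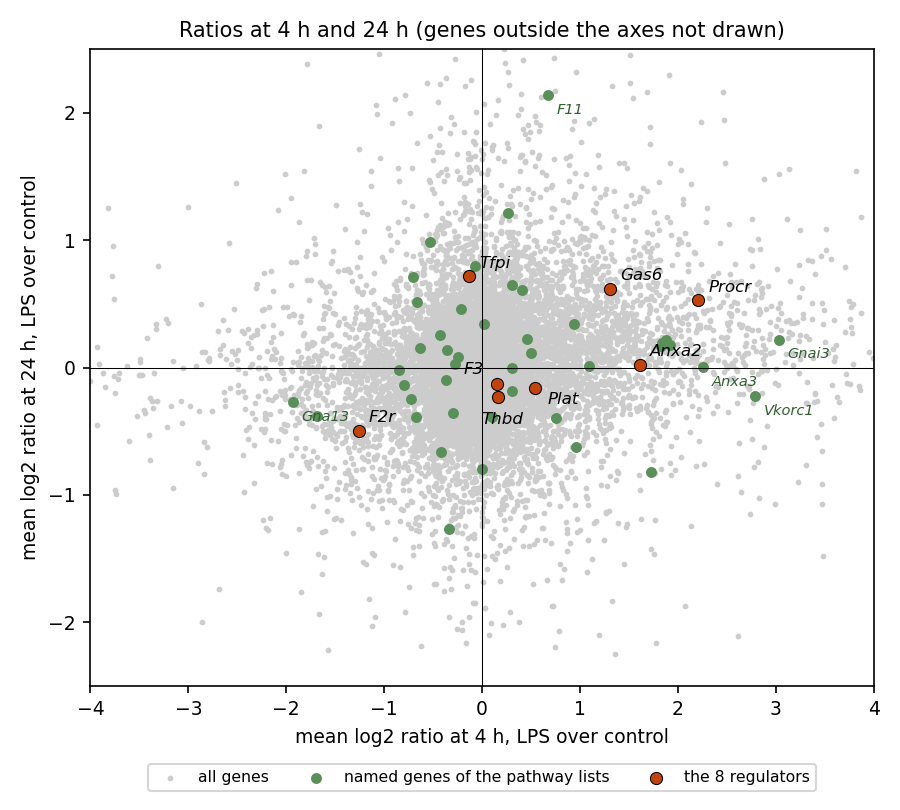
Mean log2 ratio of LPS over control at 4 h (horizontal axis) and at 24 h (vertical axis) of all genes within the axes (grey), the named genes of the pathway lists (green) and the 8 regulators (red, labelled). Procr, Gas6 and Anxa2 lie to the right at 0.53, 0.62 and 0.02 on the vertical axis, and F2r lies to the lower left.

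A response shared by both times is the only quantity with more than 1 treated RNA behind it. limma on the means of the 2 times, with Benjamini-Hochberg adjustment over all 11138 genes, called 0 of the 8 regulators and 0 (0%) of all genes. At an unadjusted p under 0.05 it called 513 genes, 4.61%, among them Gas6. The fitted ratio was 0.96 ± 0.32 (SE) for Gas6 with an adjusted p of 0.761. It was 1.37 ± 0.51 for Procr and -0.88 ± 0.33 for F2r, both with the same adjusted p. Centred on the abundant transcripts, the fitted ratio was -0.0049 for Gas6, 0.399 for Procr and -1.85 for F2r. Over the limma fits tried, the smallest adjusted p among the 8 genes ranged between 0.438, with the 4 arrays taken as independent samples, and 0.933. Relative to the median spot, Gas6 and Procr were above 0 and F2r was below 0 on 4 of 4 arrays.

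The genes with the most similar values over the 4 arrays, by Euclidean distance among all genes, were found for the 4 regulators past the rule. Nearest to Procr were Cln8, Psmb5 and Ndufa2, at distances of 0.295, 0.308 and 0.326 on the log2 scale. Nearest to Anxa2 were Fads1, Trp53inp1 and Slc35b4, at 0.104, 0.124 and 0.297. Nearest to Gas6 were Soga3, Syf2 and Magea6, at 0.184, 0.338 and 0.362, and nearest to F2r were Usp21, Ube4b and Jhy, at 0.203, 0.249 and 0.26. With 4 values a gene, such neighbours are a description of these arrays.

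Markers of cell types were read beside these values, as ratios, since levels are not in the table. Of 12 measured endothelial markers, Cdh5 was the 1 past the rule, lower at 4 h at -3.47 ± 2.12 with oligonucleotides that differed in sign, and the list median was 0.03 at 4 h and -0.06 at 24 h. Of 10 macrophage and leukocyte markers 0 were past the rule at 4 h, and 1, Coro1a, was higher at 24 h. Of 7 platelet and 8 hepatocyte markers 0 were past the rule at either time, with 4 h medians of -0.11 and -0.21. Of 11 mural and fibroblast markers 5 were higher at 4 h, Pdgfra, Acta2, Col1a1, Dcn and S100a4, and Lum was lower. The list median was 0.04 at 4 h, and Pdgfra was higher at 24 h too. Over all genes 8.74% were higher and 5.77% lower at 4 h, and 1.68% were higher at 24 h. Of 9 epithelial markers 1, Cldn3, was lower at 4 h. These markers are named after their values were seen. The part of these cell types in the values of the 8 regulators was not tested.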

How the data were processed

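Values are log2 ratios of the 2 dyes, deposited by the authors for 32448 spots on each of 4 arrays; the log2 scale and a column median of 0 were read from the values. Per the labels, RNA was amplified, labelled with Cy3 and Cy5, and the dyes were exchanged on the second array of each time. Scanning, background correction and normalization were steps not given in the sources used here. The table holds no intensities, so faint spots could not be removed, and the number of arrays limits the precision.

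Spots were named from the platform annotation, and 24344 with 1 symbol were used. Each array was centred on its median, reversed arrays were turned in sign, spots of a gene were averaged, and arrays of a time were averaged, as 1 replicate. Nothing in the labels names separate cultures. The shared response was fitted with limma 3.58.1 in R 4.3.3 (lmFit and eBayes, intercept only, on the 2 pair means, 1 residual degree of freedom); calls use an adjusted p of 0.05, and the fit was tested on simulated data. Promoter windows come from RefSeq, GRCm38.p6.

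The members, the pathway and marker lists and the list of abundant transcripts were chosen with earlier results of these data known. Named genes are the 8 regulators, list genes past the 2-fold rule, up to 4 others per list with the largest mean at either time, and the 3 nearest genes of each regulator past the rule. Alternatives were other centring, scaling, quantile normalization, spot medians, exact zeros as not measured, other thresholds, leaving out each array, and other limma fits; leaving out unlike duplicate spots was added after seeing the data. Some genes of these lists are not reported here.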

Additional observations from a re-analysis of the deposited data

Results flagged for a closer look

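In 5 named genes of the pathway lists both arrays of 4 h lay on the opposite side of 0 from both arrays of 24 h. None of the 8 regulators did so. Across all genes, 31.2% were above 0 and 31.6% below on both 4 h arrays, and 30.3% and 25.6% on both 24 h arrays. The share of all genes that changed side was not computed, so the 5 are listed as a description only. The difference between the times was not tested, since each time is taken as 1 RNA pair. The 24 h minus 4 h difference of the mean log2 ratio was 0.68 for Serpina5, the protein C inhibitor, with 0.16 and 0.35 at 24 h and -0.15 and -0.70 at 4 h. It was 0.78 for the thrombin receptor gene F2rl3, with 0.14 and 0.16 at 24 h and -0.37 and -0.89 at 4 h, and 0.67 for Gna12, with 0.32 and 0.59 at 24 h and -0.37 and -0.06 at 4 h. It was -2.54 for Kng1, kininogen, with -0.19 and -1.44 at 24 h and 0.63 and 2.82 at 4 h. Without duplicate spots over 2-fold apart Kng1 has no 4 h value and lies at -0.19 on the single 24 h array left. The difference was -1.15 for Anxa9, with -0.71 and -0.08 at 24 h and 1.48 and 0.02 at 4 h.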

How the results depend on the processing

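The counts at 4 h, 3 higher and 1 lower, were the same with the values as deposited, with arrays scaled to 1 spread, quantile normalization, spot medians, exact zeros as not measured, and the mean alone. With each array centred on the abundant transcripts the counts were 0 higher and 5 lower at 4 h, and 6 regulators were higher and 0 lower at 24 h than at 4 h. By the same centring 1.09% of all genes were higher and 79.6% lower at 4 h, and 76.4% were higher and 1.08% lower at 24 h than at 4 h. It subtracts 1 constant per array, so every gene with a 4 h mean between 0 and 1.82 turned below 0, among them Anxa2 (-0.21), Gas6 (-0.51), Kng1 (-0.094), Ggcx (-0.73), Fads1 (-0.23), Trp53inp1 (-0.13), Slc35b4 (-0.20), Soga3 (-0.56), Syf2 (-0.52) and Magea6 (-0.38). With a mean of at least 1.5-fold and arrays asked only to lie on the same side of 0, 1 regulator, Gas6, was higher at 24 h. Without duplicate spots over 2-fold apart, 2 were higher at 4 h and 1 was lower at 24 h than at 4 h, Anxa2 being left with a single 4 h array.

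Leaving out each array in turn gave 2 to 4 regulators higher and 1 lower at 4 h, and 0 to 1 higher and 0 lower at 24 h. It gave 0 to 1 higher and 1 to 3 lower at 24 h than at 4 h. The array without which Anxa2 was lost is the 4 h array with LPS in Cy5, Plat was gained without its reversed partner, and Tfpi was gained without the 24 h array with LPS in Cy5. limma called 0 of the 8 in every fit run, robust eBayes, a dye term and an adjusted p threshold of 0.1 among them. A filter on faint spots was not run, since no intensities are in the table. LPS and control RNA are already paired on each array. No pairing of replicates was possible, because the labels give no replicate numbers and each time is taken as 1 RNA pair.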
